A study of Homo sapiens with 2 samples.

Results

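CXCL10-expressing tumour cells were sought among the hashed samples in which most cells lacked CXCL10, the gene of a chemokine that draws activated T cells. The library came from OVCAR5, a human ovarian carcinoma line with an IFN-gamma-sensing reporter, recovered from tumours grown in NSG-b2m-/- mice, pooled from 5 tumours and sorted for cyan fluorescent protein (CFP), the mark of bystander tumour cells. After digestion the cells were kept 6 h in vitro either unstimulated, with 10 ng/ml TNFa, or with 100 ng/ml IFNy and 10 ng/ml TNFa. Each sample was stained with a pair of numbered hashtag antibodies (HTO), and no label ties a pair to a treatment. The pairs are therefore named by their numbers, no value is compared between treatments, and no p-value is given, since cells of 1 library are not replicates.

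Cells needed 1000 genes or more and a mitochondrial share of UMIs (unique molecular identifiers, 1 per captured RNA molecule) no higher than 20%. Each was given to its top 2 hashtags if the second reached 10 counts and was no less than 3-fold above the third, called the extra hashtag below. The 92 member cells were selected on CXCL10 itself: they held at least 2 CXCL10 UMIs and carried 1 of 10 pairs, namely HTO2 with HTO5, HTO6, HTO8 or HTO10, HTO3 with HTO5, HTO7 or HTO8, and HTO4 with HTO7, HTO8 or HTO10. They were 4.13% of the 2225 kept cells of those pairs, which were part of 3144 kept cells with a clear pair, 3538 kept cells and 5269 barcodes. The comparison cells were the 1802 cells of the same pairs with 0 CXCL10 UMIs, and 331 cells with exactly 1 UMI stood between. The remaining 5 pairs (HTO2 with HTO7, HTO3 with HTO6 or HTO9, HTO4 with HTO6 or HTO9), in which 92.5% to 97.7% of cells held at least 2 CXCL10 UMIs, gave 919 cells as a mark of a strong response.

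CXCL10 can be switched on along several routes. IFN-gamma binds its receptor IFNGR1/IFNGR2, signals through JAK kinases to GAS elements, and induces the transcription factor IRF1, with guanylate-binding proteins, IDO1, CXCL9 and antigen presentation genes. Type I interferons signal through IFNAR1/IFNAR2 to a complex with IRF9 that binds ISRE elements and induces antiviral genes such as the IFIT family, RSAD2, MX1 and OASL; IRF3, activated by nucleic acid sensors, can induce part of that set without interferon. NF-kB, which TNF activates, binds kB elements of the CXCL10 promoter as well.

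The promoter windows of a gene for each route are shown so that matches to short cores of these elements can be seen. They are the 250 bases before the annotated start, from RefSeq (GRCh38.p14), at chr4:76023498-76023747 on the minus strand for CXCL10, chr10:89392373-89392622 on the plus strand for IFIT1, and chr5:132490774-132491023 on the minus strand for IRF1. Capitals mark matches, on either strand, to an ISRE core GAAANNGAA, a GAS core TTCNNNGAA or a kB core GGGANNTTC, and no matches overlapped in these windows.
CXCL10: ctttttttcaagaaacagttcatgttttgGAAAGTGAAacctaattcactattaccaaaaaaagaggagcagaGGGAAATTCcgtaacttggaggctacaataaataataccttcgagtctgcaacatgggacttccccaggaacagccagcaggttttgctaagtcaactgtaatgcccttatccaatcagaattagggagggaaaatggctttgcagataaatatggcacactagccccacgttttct
IFIT1: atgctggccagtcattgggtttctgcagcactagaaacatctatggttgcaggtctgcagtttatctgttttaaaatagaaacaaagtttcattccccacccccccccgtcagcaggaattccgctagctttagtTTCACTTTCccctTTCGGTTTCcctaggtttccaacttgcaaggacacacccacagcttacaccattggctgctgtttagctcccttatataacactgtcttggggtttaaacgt
IRF1: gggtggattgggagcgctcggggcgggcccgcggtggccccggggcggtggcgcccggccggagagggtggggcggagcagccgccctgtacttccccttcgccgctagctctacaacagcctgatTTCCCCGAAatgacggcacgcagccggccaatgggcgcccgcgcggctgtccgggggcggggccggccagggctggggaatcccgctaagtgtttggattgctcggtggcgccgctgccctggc
The CXCL10 window held 1 ISRE and 1 kB match, the IFIT1 window held 2 ISRE matches, and the IRF1 window held 1 GAS match. Of 35116 such windows in the table, 6.88% held the ISRE core, 6.57% the GAS core and 3.52% the kB core. Among windows of the type I interferon list used below, 25 of 35 held the ISRE core, against 12 of 37 for the IFN-gamma list, counting 25 matched genes in each list. The GAS core was held by 8 of 35 windows of the type I list and 5 of 37 of the IFN-gamma list, so it did not mark the IFN-gamma list. A match is a description of letters and not a site shown to be bound. Elements that depart from these cores stay in lower case, so the counts of matches are not counts of elements.

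Member cells were few in every pair. They made up 8.13% of HTO2+HTO6 cells (26 of 320, exact 95% binomial interval 5.38% to 11.7%), 6.12% of HTO2+HTO10 (9 of 147, 2.84% to 11.3%), 4.44% of HTO3+HTO8 (28 of 630, 2.97% to 6.36%), 4.12% of HTO4+HTO10 (12 of 291, 2.15% to 7.09%), 3.05% of HTO4+HTO8 (4 of 131, 0.838% to 7.63%) and 2.96% of HTO2+HTO5 (9 of 304, 1.36% to 5.55%). HTO4+HTO7 gave 2 of 137, HTO3+HTO7 1 of 71 and HTO2+HTO8 1 of 145 cells, and HTO3+HTO5 gave 0 of 49, with an upper limit of 7.25%; 3 cells would be 6.12%. Most of these intervals overlap, so an order of the pairs cannot be read beyond the contrast of HTO2+HTO6 with HTO2+HTO8 and HTO4+HTO7. Cells with exactly 1 CXCL10 UMI made up 10.2% to 16.9% of each pair. The intervals here and below cover counting error only.

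**Figure D1:**
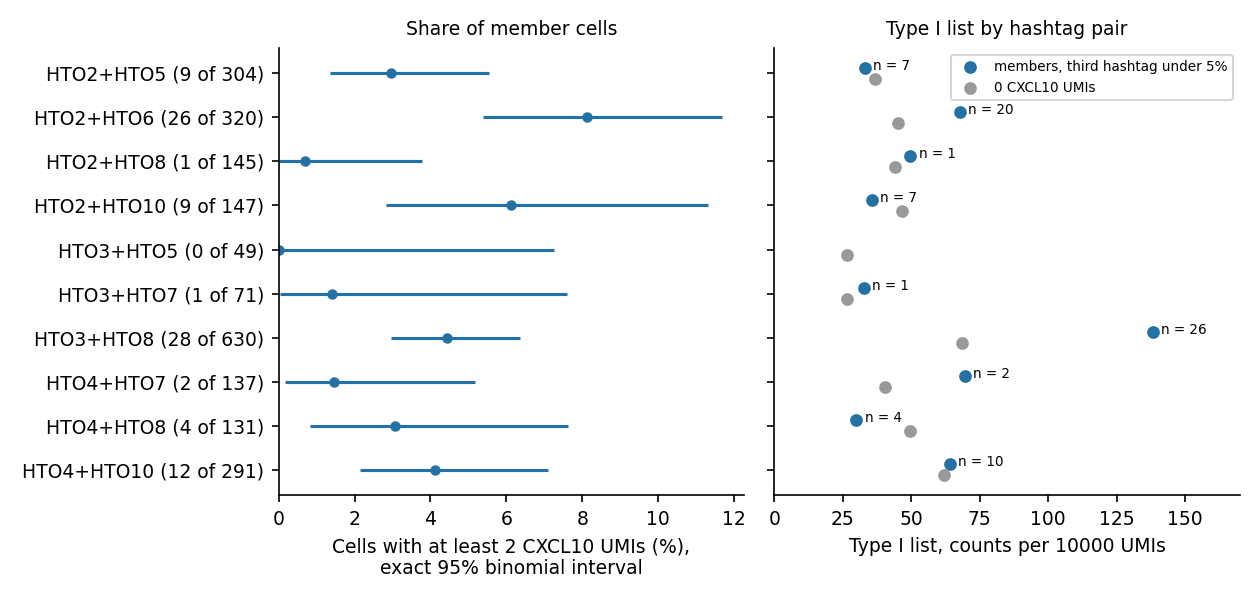
Left, the share of cells with at least 2 CXCL10 UMIs in each of the 10 hashtag pairs, with exact binomial intervals. Right, the summed type I interferon list in counts per 10000 UMIs, in members with an extra hashtag under 5% and in cells with 0 CXCL10 UMIs of the same pair. The shares lie between 0 and 8.13%, and the widest gap on the right is in HTO3+HTO8, at 138 in members and 68.6 in cells with 0 CXCL10 UMIs.

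CXCL10 was spread unevenly over the members. Exactly 2 UMIs were counted in 50 of the 92 cells, 3 or 4 in 21, and 5 to 11 in 11. No cell held 12 to 38, and the remaining 10 cells held 39 to 174. These 10 cells carried 74.5% of the 1020 CXCL10 counts, and the variance of the count was 62.6 times its mean. Those with 2 UMIs lay just inside the threshold and the 331 cells with 1 UMI just outside it: the IFN-gamma list described below stood at 12.5 and 10.9 counts per 10000 UMIs in these classes, and the type I list at 56.9 and 59.4. The cells with 0 UMIs had 9.99 and 51.3. No cell type that should lack CXCL10 was in the sort, so the share of such low counts given by free RNA was not measured.

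The third hashtag set part of the members apart. Its median share of a cell's hashtag counts was 0.693% in members and 0.646% in cells with 0 CXCL10 UMIs. It reached at least 5%, a limit chosen after the data were seen, in 14 of 92 members (15.2%, 8.58% to 24.2%), in 14 of 331 cells with 1 UMI (4.23%) and in 47 of 1802 cells with 0 UMIs (2.61%, 1.92% to 3.45%). Of the 10 members with 39 or more CXCL10 UMIs, 7 had such a strong extra hashtag, and the 10 had a median depth of 19606 UMIs, beside 13325 in all members. No doublet caller was used, and doublets made of cells of 1 pair cannot be seen by hashtags.

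The identity of that extra hashtag also differed. In 11 of the 14 cells it formed, with a hashtag of the cell's own pair, one of the 5 pairs with a strong response. In members with a weaker extra hashtag this held for 21 of 78 (26.9%), and in all cells with 0 CXCL10 UMIs for 27.5%. Among the 47 cells with 0 CXCL10 UMIs and a strong extra hashtag it held for 14. The number of hashtags that can complete such a pair differs between pairs, and the shares here and below were not matched by pair. The cell of highest CXCL10, with 174 UMIs, carried HTO2 and HTO6 at 2280 and 1488 counts and HTO3 at 286, where HTO3+HTO6 is one of those 5 pairs. The next, with 108, carried HTO2 and HTO5 at 2486 and 2341 counts and HTO7 at 603, where HTO2+HTO7 is one. Another cell, with 93 UMIs, carried HTO2 and HTO10 at 1901 and 1685 counts, followed by HTO6 at 454 and HTO4 at 448, and HTO4+HTO6 is again one of the 5. Read over all 2225 cells, a strong extra hashtag that completed one of those 5 pairs was seen in 29 cells, of which 11 were members (37.9%, 20.7% to 57.7%), against 3 of 46 cells (6.52%, 1.37% to 17.9%) where it did not.

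**Figure D2:**
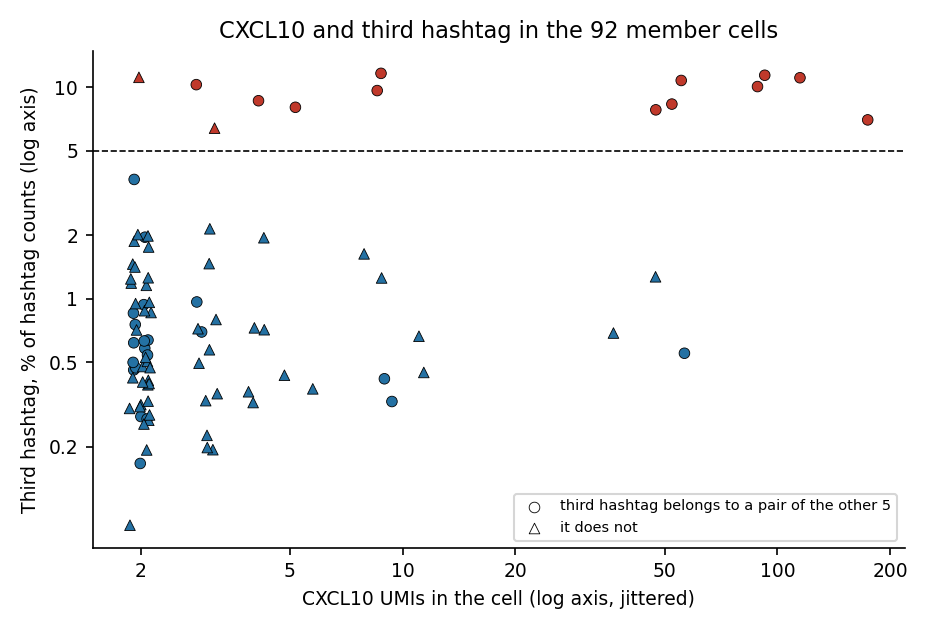
Each of the 92 members by its CXCL10 UMIs and by the share of its hashtag counts given by the third hashtag, both on log axes. Circles mark cells whose extra hashtag forms one of the other 5 pairs with a hashtag of the cell, or at 5% or more with the fourth; triangles mark the rest. Of the 10 cells at 39 UMIs or more, 7 lie above the dashed line at 5%.

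These 14 cells and the other 78 were described apart. Their depth was alike, with a median of 13792 UMIs in the 14, 13325 in the 78 and 11383 in cells with 0 CXCL10 UMIs, and median mitochondrial shares of 12.2%, 11.9% and 13.3%. Levels are summed counts per 10000 UMIs. Ratios are Mantel-Haenszel ratios of levels over the pairs, members over cells with 0 CXCL10 UMIs of the same pair, with a 95% counting interval. A gene was called higher or lower at 1.5-fold with the interval clear of 1, among genes of at least 0.05 per 10000 UMIs, and CXCL10 was left out throughout. Cells vary more than counting error, so a call compares these cells and is no test.

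The IFN-gamma response list, summed over cells, was high in the 14 members with a strong extra hashtag. Its 35 genes summed to 74.0 counts per 10000 UMIs in these cells, against 10.7 in cells with 0 CXCL10 UMIs of the same pairs and 187 in the other 5 pairs, a ratio over the 0-UMI cells of 6.84 (6.49 to 7.21). Of the 17 genes tested, 15 were called higher and 0 lower, with a median ratio of 6.25, beside 5.45% of all 9503 genes called higher, 1.42% called lower and a median ratio over all genes of 0.962. The part of droplets with cells of several samples in these counts was not tested.

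IRF1, the transcription factor early in the pathway, stood at 15.1 in these 14 cells, 3.44 in the other 78 members, 2.1 in cells with 0 CXCL10 UMIs and 39.4 in the other 5 pairs. GBP1, a guanylate-binding protein of cell-autonomous defence, had 15.3, 1.90, 0.951 and 36.8 in the same order, and IDO1, which degrades tryptophan, had 7.20, 0.312, 0.103 and 27.5. WARS, the tryptophan tRNA ligase, had 4.86, 0.865, 0.594 and 13.6. For each of these genes the summed level of the 14 cells lay well above both other classes of the 10 pairs and below the other 5 pairs. Single cells differed. The member with 174 CXCL10 UMIs held 103 GBP1 counts, and the one with 108 held 59 IDO1 counts. Those of HTO3+HTO8, with 3 and 2 CXCL10 UMIs, had 1 and 0 IRF1 counts and IFN-gamma lists of 13.5 and 8.11. Those of HTO2+HTO6 with 9 and 4 had 2 and 1 IRF1 counts and lists of 9.92 and 12.1. After thinning, 7 of the 14 reached the IFN-gamma range defined below.

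Less abundant IFN-gamma genes had counts in some of the same cells. CXCL9, a chemokine closely tied to IFN-gamma, had 5 counts in the 14 cells and 0 in the 78. CD274, the gene of the checkpoint ligand PD-L1, had 17 counts in the 14 cells, a level of 0.780, and 6 in the 78, a level of 0.0535; the cells with 0 CXCL10 UMIs had a level of 0.0252. CIITA, the master regulator of class II antigen presentation, had 8 counts in the 14 cells and 2 in the 78. Setting cells with 0 CXCL10 UMIs of the same pairs at 0% and the other 5 pairs at 100%, the 21 genes with a gap of at least 0.5 counts per 10000 UMIs had a median position of 34.4% in the 14 cells (5.91% to 71.1%), against 2.57% in the 78 (-0.352% to 18.1%).

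CXCL11, a close relative of CXCL10 and a ligand of the same receptor CXCR3, had a higher summed level in both classes of member. It had 5.92 counts per 10000 UMIs in the 14 cells, 0.294 in the 78, 0.0401 in cells with 0 CXCL10 UMIs and 14.4 in the other 5 pairs. In the 78 cells its ratio was 6.75 (4.47 to 10.2), and 28 of their 33 counts were in HTO3+HTO8. Its window, shown because the gene lies beside CXCL10 at chr4:76036071-76036320 on the minus strand, held 1 GAS and 1 kB match, in capitals as above, and no ISRE match.
CXCL11: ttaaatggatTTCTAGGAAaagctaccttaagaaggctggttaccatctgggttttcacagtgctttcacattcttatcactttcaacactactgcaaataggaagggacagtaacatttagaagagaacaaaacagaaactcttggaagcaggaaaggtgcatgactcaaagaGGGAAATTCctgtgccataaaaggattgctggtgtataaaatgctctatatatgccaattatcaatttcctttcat

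In the 78 members with a weaker extra hashtag most type I interferon genes were called higher. Its 33 genes summed to 82.4 counts per 10000 UMIs in these cells and to 51.9 in cells with 0 CXCL10 UMIs of the 9 pairs with members, with 107 in the other 5 pairs, a ratio of 1.52 (1.49 to 1.55). Of the 29 genes tested, 25 were called higher and 0 lower, with a median ratio of 2.39, beside 5.91% of all 9504 genes called higher, 0.979% called lower and a median over all genes of 1.03. The list's sum moved less than its median gene because IFI27, its most abundant member, had 35.2 in the 78 cells and 29.0 in cells with 0 CXCL10 UMIs. The IFN-gamma list had a ratio of 1.47 (1.40 to 1.55) in the same cells, an interval that overlaps that of the type I list, with 6 of 17 genes called higher and a median ratio of 1.40. The 6 were GBP1, GBP3, GBP4, IDO1, CD74 and IL15RA.

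Antiviral genes led by ratio in these 78 cells, with CXCL11 (6.75, above) between RSAD2 and OASL. IFIT2, whose product binds RNA and restrains translation, had 209 counts in 18 of 78 cells, 1.86 per 10000 UMIs, against 0.0924 in cells with 0 CXCL10 UMIs, a ratio of 18.9 (15.4 to 23.2), or 12.3 (9.80 to 15.5) without the cell with most IFIT2. In the 14 it had 1.33, from 29 counts of which 28 were in 1 cell. RSAD2, the radical-SAM enzyme viperin, had 66 counts, all in members with a weaker extra hashtag, a level of 0.588 against 0.0406 and a ratio of 12.9 (9.16 to 18.1), or 7.35 (4.95 to 10.9) without the cell with most RSAD2. It had 0 counts in the 14 other members, where 3 counts would be a level of 0.138, and 0.206 in the other 5 pairs. OASL, a relative of the oligoadenylate synthetases, had 0.838 against 0.131, a ratio of 5.92 (4.65 to 7.53).

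IFIT1, the RNA sensor DDX58 (RIG-I) and MX1 had higher summed levels in the 78 cells than in the 14. IFIT1 had 1.34 in the 78 cells, 0.229 in the 14, 0.286 in cells with 0 CXCL10 UMIs and 0.226 in the other 5 pairs. DDX58 had 1.09, 0.275, 0.258 and 1.05 in that order, and MX1, the dynamin-like GTPase MxA, 3.62, 1.42, 1.33 and 3.05. IFIT3 did not part the members in this way, at 2.33 in the 78 and 2.52 in the 14, where 36 of 55 counts were in 1 cell, against 0.419 in cells with 0 CXCL10 UMIs. The IFIT1, DDX58 and MX1 levels pool pairs, and HTO3+HTO8 gave 26 of the 78 cells and 2 of the 14. Its 26 members had 3.30, 2.26 and 8.35 in that order, against 0.510, 0.456 and 2.03 in its cells with 0 CXCL10 UMIs. The 20 members of HTO2+HTO6 had 0.569, 0.797 and 1.94, against 0.154, 0.275 and 1.09. The 10 of HTO4+HTO10 had 0.305, 0.0762 and 1.37, against 0.656, 0.245 and 1.90. The part of pair in the contrast of the 78 with the 14 was not tested. The summed levels of IFIT1, RSAD2 and MX1 were thus higher in the 78 cells than in the 5 pairs of strong CXCL10. Those of IRF1, GBP1, IDO1 and CXCL11 were below them. For MX1, only the members of HTO3+HTO8 exceeded the 3.05 of those 5 pairs. With cells thinned to equal depth, as below, MX1 was seen in 48.7% of 76 such members and 66.5% of the other 5 pairs. For IFIT1 these shares were 23.7% and 9.47%. For RSAD2 they were 13.2% and 8.89%, with intervals that overlap. In the 14 cells the type I list summed to 72.1, against 54.9 in cells with 0 CXCL10 UMIs of their pairs. The ratio was 1.505 (1.43 to 1.58), an interval that overlaps that of the 78. Of its genes 11 of 28 were called higher, beside 5.45% of all genes.

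**Figure D3:**
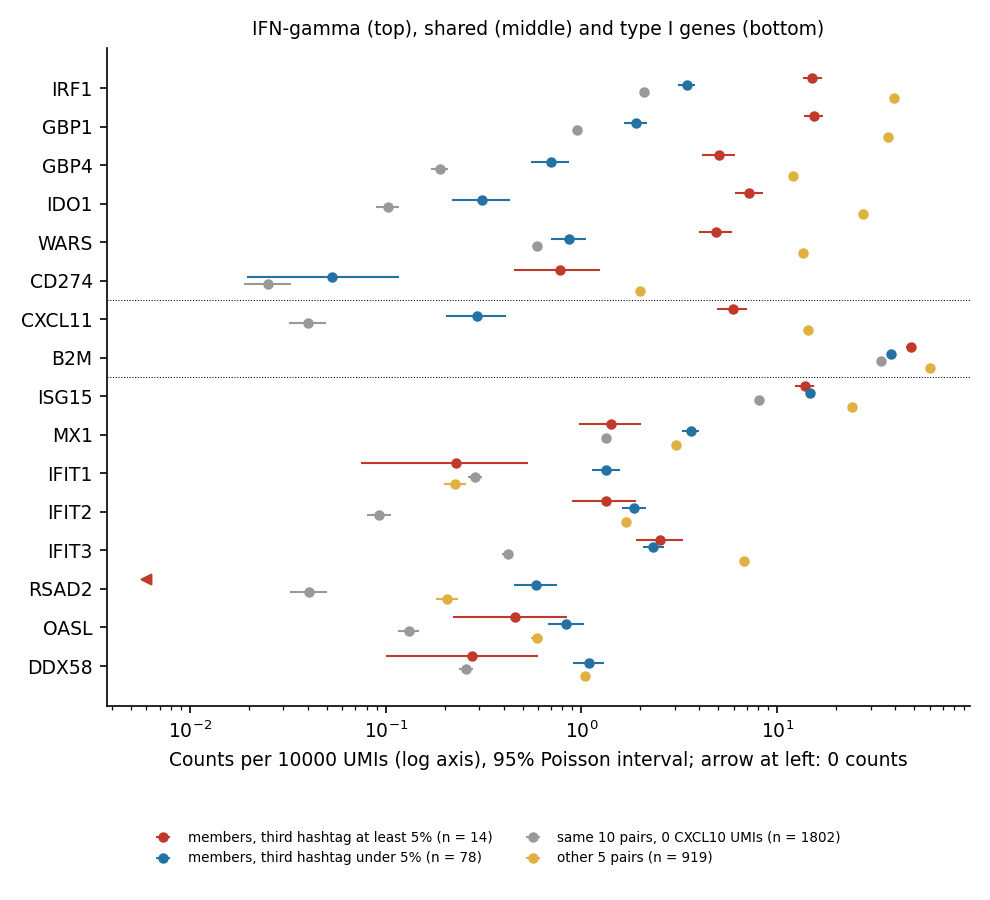
Levels of 16 genes in members with an extra hashtag of at least 5% (red), members under 5% (blue), cells of the same 10 pairs with 0 CXCL10 UMIs (grey) and the other 5 pairs (yellow), in counts per 10000 UMIs on a log axis with exact Poisson intervals. Red points lie nearest yellow for IRF1, GBP1, IDO1 and CXCL11, while for IFIT1 and RSAD2 the blue points are highest and RSAD2 has 0 counts in red.

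The genes shared by both interferon responses were also higher. The list of 34 holds subunits of the proteasome, the peptide transporters and class I antigen presentation. In the 78 cells its ratio was 1.22 (1.20 to 1.24), with 15 of 34 genes called higher, beside 5.91% of all genes. In the 14 it was 1.70 (1.64 to 1.76), with 25 of 34 called higher, beside 5.45% of all genes. None was called lower in either, where 0.979% and 1.42% of all genes were. B2M, the invariant chain of class I molecules, had 38.3 counts per 10000 UMIs in the 78 cells and 48.2 in the 14, against 33.9 in cells with 0 CXCL10 UMIs.

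The type I pattern was carried by few cells and mainly by 1 pair. Counting each of the 78 cells against its own pair, 9243 type I counts were seen where 6073 were expected, and 42 of 78 cells lay above their expected count. The 10 cells of largest excess equalled 84.8% of this net excess and the top 20 equalled 119.5%, since cells below expectation subtract from it. For the IFN-gamma list in the same cells the top 10 equalled 68.0% of the net excess. In HTO3+HTO8 the list stood at 138 in 26 members against 68.6 in 506 cells with 0 CXCL10 UMIs, and in HTO2+HTO6 at 67.8 in 20 members against 45.2 in 245 cells. In HTO4+HTO10 the values were 64.2 in 10 members and 62.0 in 233 cells, in HTO2+HTO5 33.0 and 36.9, in HTO2+HTO10 35.6 and 46.8, and in HTO4+HTO8 30.1 and 49.5. Among pairs with at least 4 members, they therefore exceeded their own pair most in HTO3+HTO8 and HTO2+HTO6 and lay near or below it in the others. The 2 members of HTO4+HTO7 had 69.7 against 40.3, and the single members of HTO2+HTO8 and HTO3+HTO7 had 49.7 against 44.0 and 32.7 against 26.5. Without HTO3+HTO8, the ratio over these members was 1.14 (1.10 to 1.18) in place of 1.52, and below the 1.29 (1.20 to 1.37) of the IFN-gamma list without that pair.

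Single genes showed the same division between pairs. IFIT2 had 4.60 in HTO3+HTO8 members, from 10 of 26 cells, against 0.153 in cells with 0 CXCL10 UMIs, and in HTO2+HTO6 1.02, from 4 of 20 cells, against 0.0469. In HTO4+HTO10 it had 1 count in 10 members, a level of 0.0762, against 0.158. RSAD2 was seen in 12 of 26 HTO3+HTO8 members and in 2 of 20 HTO2+HTO6 members, where 29 of 33 counts came from 1 cell, and it had 0 counts in the 10 HTO4+HTO10 members. IFIT2 and RSAD2 were thus higher in members than in their neighbours in 2 of the 3 pairs with at least 10 members.

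To count cells, each was thinned to 5000 UMIs, which left out 2 members and 136 cells with 0 CXCL10 UMIs. A cell was placed in the IFN-gamma range when its IFN-gamma list reached the 5th percentile of the other 5 pairs, 56.0 counts per 10000 UMIs. Of the 14 members with a strong extra hashtag 7 reached it (50.0%, 23.0% to 77.0%), and of 76 others 2 (2.63%, 0.320% to 9.18%). It was reached by 2 of 317 cells with 1 CXCL10 UMI (0.631%) and 4 of 1666 with 0 (0.240%, 0.0655% to 0.614%), beside 95.2% of the other 5 pairs. Of all 90 members 9 thus carried an IFN-gamma list in the range of the strong response, and 3 of the 90 lay within 20% of the limit.

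A cell was placed in the top type I range when its type I list passed the 95th percentile of cells of its own pair with 0 CXCL10 UMIs, so that about 5% of those cells lie in it by construction. Of 76 members with a weaker extra hashtag 16 did so (21.1%, 12.5% to 31.9%), of the 14 others 1, of the cells with 1 CXCL10 UMI 20 of 317 (6.31%) and of those with 0 84 of 1666 (5.04%). In the weaker class it held 6 of 47 cells at 2 CXCL10 UMIs (12.8%, 4.83% to 25.7%), 4 of 18 at 3 or 4 (22.2%), and 6 of 11 at 5 or more (54.5%, 23.4% to 83.3%), with intervals that overlap. Neither range held 60 of the 76 cells and 7 of the 14. The 2 limits are of unlike kind, so these counts do not compare the lists. A like limit for both was the 95th percentile of all thinned cells with 0 CXCL10 UMIs. Of the 76 cells, 14 passed it for the IFN-gamma list (18.4%, 10.5% to 29.0%). For the type I list 19 passed it (25.0%, 15.8% to 36.3%), and the intervals overlap. In turn, members were 17 of the 121 cells in the top type I range (14.05%), against 4.34% of all thinned cells of these pairs, so 104 such cells had under 2 CXCL10 UMIs.

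**Figure D4:**
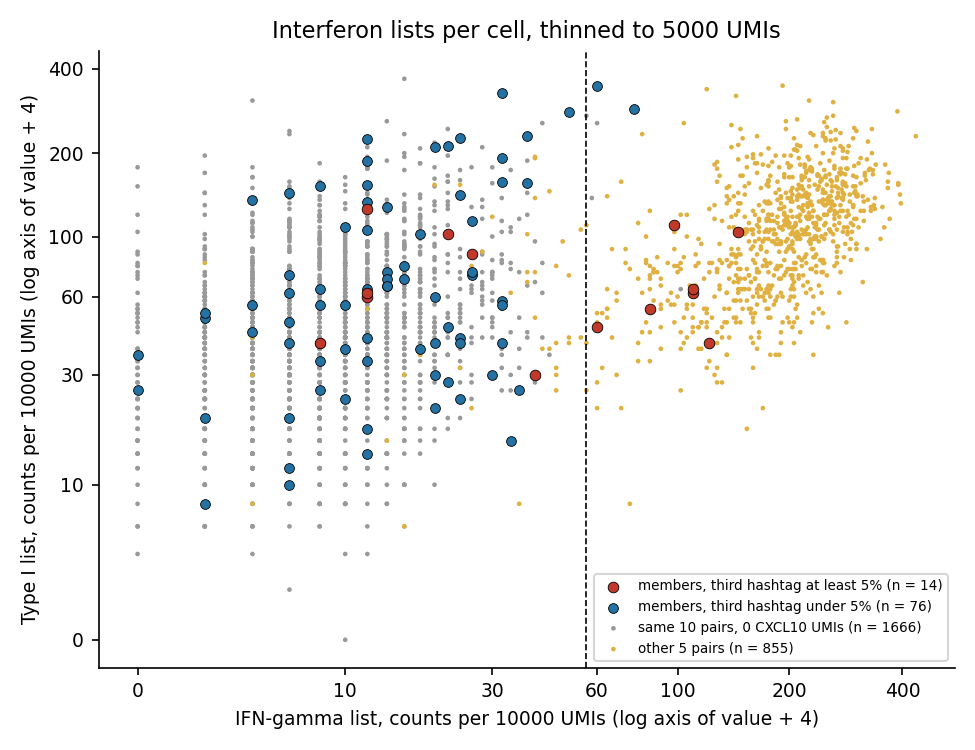
Each cell after thinning to 5000 UMIs by its IFN-gamma list and its type I list, in counts per 10000 UMIs on log axes of the value plus 4. The dashed line marks 56.0, the lower limit of the IFN-gamma range; 7 of 14 members with a strong extra hashtag and 2 of 76 others lie at or beyond it, and 16 of those 76 stand above the 95th percentile of the type I list in their own pair.

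A few cells show what the classes hold. The member with 174 CXCL10 UMIs had an IFN-gamma list of 108 and a type I list of 55.4 counts per 10000 UMIs, with 103 GBP1, 44 IRF1, 32 CXCL11 and 0 RSAD2 counts. A member of HTO2+HTO6 had 58 CXCL10 UMIs and an extra hashtag of 0.553%. Its type I list of 286 exceeded its IFN-gamma list of 35.6, with 29 RSAD2, 11 GBP1, 1 IRF1 and 0 IDO1 counts. In HTO3+HTO8, a member had 47 CXCL10 UMIs and an extra hashtag of 1.27%. Its type I list was 219 and its IFN-gamma list 36.2. It held 47 IFIT2, 36 IFIT1, 18 GBP1, 11 CXCL11, 7 IRF1 and 0 IDO1 counts. The 2 members with a weaker extra hashtag in the IFN-gamma range were also in the top type I range: their lists stood at 65.9 and 73.6 for IFN-gamma and 329 and 277 for type I, and both were of HTO3+HTO8. The 3 members with 39 or more CXCL10 UMIs and a weaker extra hashtag had 0 IDO1 and 0 CXCL9 counts. Yet their IFN-gamma lists were 35.6, 36.2 and 31.4, with 11, 18 and 2 GBP1 and 1, 7 and 10 IRF1 counts. The member with 174 CXCL10 UMIs had 0 CXCL9 counts too.

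Interferon genes themselves were at or near 0 in the members. IFNG, IFNB1, IFNA1, IFNA2, IFNW1, IFNK and IFNL1 to IFNL3 had 0 counts in all 92, where 3 counts would be a level of 0.0224, and IFNE had 3. The receptor chains and kinases had a ratio of 1.02 (0.947 to 1.09), with 1 of 7 genes called higher, the kinase TYK2, beside 5.43% of all 9513 genes called higher and 1.16% called lower in all members. Among the nucleic acid sensors and adaptors 2 of 7 were called higher, the nuclear DNA sensor IFI16 at 0.784 against 0.369 and the RNA sensor adaptor MAVS at 0.440 against 0.307 counts per 10000 UMIs.

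The TNF and NF-kB list did not set members apart in the same degree. It had a ratio of 1.12 (1.10 to 1.14) in all members, with 5 of 37 genes called higher and 0 lower. Of all genes, 5.43% were called higher and 1.16% lower in this comparison. The 5 were CCL2, a monocyte chemokine, ICAM1, the leukocyte adhesion ligand, IL32, TNFAIP8 and ZC3H12A, an RNase that ends cytokine messages. In the 14 cells alone 7 of 39 genes were called higher and 4 lower, namely CXCL1, CXCL8, LTB and VCAM1. Of all genes, 5.45% were called higher and 1.42% lower in those cells. Between pairs this list spanned 23.1 to 129 counts per 10000 UMIs in cells with 0 CXCL10 UMIs. Members were found at both ends: the list stood at 141 in the members of HTO3+HTO8 and 129 in its cells with 0 CXCL10 UMIs, and at 32.9 and 30.9 in HTO4+HTO10. CXCL8, a neutrophil chemokine of the same list, had 2.29 in the 14 members with a strong extra hashtag and 5.89 in the 78 others, against 6.13 in cells with 0 CXCL10 UMIs.

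Mitotic genes were high in a few members. The G2/M list had 10.2 counts per 10000 UMIs in members and 4.64 in cells with 0 CXCL10 UMIs, a ratio of 2.28 (2.16 to 2.42). Of its genes 17 of 19 were called higher, beside 5.43% of all genes. A member of HTO2+HTO5 with 57447 UMIs held 586 of the 1367 counts, another held 202, and 53 of 92 members held 0. Without the first of these cells the level was 6.09 and the ratio 1.34 (1.24 to 1.44), with 4 genes called higher, and in the 78 cells it was 1.07 (0.976 to 1.17), with 0. Comparing within depth terciles of each pair, with that cell, the ratio was 1.86 (1.75 to 1.97), and after thinning 9 of 90 members (10.0%, 4.68% to 18.1%) passed the 95th percentile of the cells with 0 CXCL10 UMIs. Deeper cells hold more counts of every gene, CXCL10 included, and the part of depth in this ratio beyond those strata was not tested. The S phase list had a ratio of 1.16 (1.07 to 1.25), and within depth terciles 1.05 (0.968 to 1.13).

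Beyond the interferon lists, the genes of largest ratio in all members, by the naming rule, were TRIM22, an antiviral ubiquitin ligase, at 4.91 (3.18 to 7.58), TNFSF13B, the B cell survival factor BAFF, at 4.73 (3.57 to 6.27), HAPLN3, a hyaluronan link protein, at 4.57 (2.90 to 7.20), and HMMR, a mitotic spindle protein, at 4.52 (3.58 to 5.72), or 1.54 (1.05 to 2.26) without the HTO2+HTO5 cell of most G2/M counts. In the 78 cells the rule also named FST, the activin antagonist follistatin, at 3.49 (2.70 to 4.50) and from 10 cells, and the cytokinesis kinase CIT at 3.91 (2.49 to 6.14) from 4 cells, or 0.744 (0.273 to 2.03) without that cell. The genes of smallest ratio rested on 1 or 2 counts in members: MSMP had 1 count, a ratio of 0.0853 (0.0119 to 0.611), and AXIN2, a brake on Wnt signalling, had 1 count, a ratio of 0.103 (0.0145 to 0.732).

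The members were tumour cells by their markers. The epithelial list of 13 genes had 66.0 counts per 10000 UMIs in members and 73.1 in cells with 0 CXCL10 UMIs, and 0 of 11 tested genes were called in either direction. The B cell, dendritic, fibroblast and erythroid lists had 0 counts in members. The T or NK list had 26 counts, all of CD69, which tumour cells of these pairs held too, and its other 10 genes, CD3D, CD3E, CD8A, NKG7 and GNLY among them, were at 0; the list had 0.194 in members and 0.0670 in cells with 0 CXCL10 UMIs. The myeloid list had 0.657 and 0.553, and the endothelial list 0.478 and 0.522. The unfolded protein, hypoxia and immediate early lists had ratios of 0.901, 0.993 and 1.00. Within the immediate early list 5 of 15 genes were called lower and 0 higher, beside the 1.16% of all genes called lower: FOS, EGR1 and ATF3, early transcription factors with few counts, and the heat shock genes HSPA1A and HSPA1B, near-identical copies whose reads may be shared.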

How the data were processed

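The authors deposited unnormalised UMI counts, whole numbers for 36601 genes and 10 hashtags over 5269 barcodes of a single pooled library. Per the file headers they came from Cell Ranger 5.0.1; Cell Ranger 2.1.1 and the build GRCh38 stand in the submitters' processing notes, and this difference was not resolved. Barcode calling is not described in the labels or headers. Counting from the 3' end of RNA sees mostly transcript ends, and UMIs remove PCR copies. The filters on genes and mitochondrial share removed 1731 barcodes, and 3538 cells remained. No doublet caller was run; the 3-fold rule on the third hashtag left out cells without a clear pair.

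Members, gene lists and the naming rule were chosen with earlier results of these data known. The 12 response lists and 8 marker lists were summed per 10000 UMIs with exact Poisson intervals. Members and cells with 0 CXCL10 UMIs were compared by Mantel-Haenszel rate ratios over hashtag pairs with Greenland-Robins 95% intervals, checked on simulated counts. No test was made, because the hashtags carry no treatment labels and the pool is 1 sample. Genes named beyond the interferon lists were taken from the 12 called genes of largest and 8 of smallest ratio that went the same way in all but 1 of the 3 pairs with at least 10 members, and up to 4 genes of each other list; the fifth NF-kB gene called higher, the 4 called lower in 14 members, and the fifth immediate early gene were named, and single cells left out, after their values were seen. Thinning drew 5000 UMIs per cell with seed 1. The split at an extra hashtag share of 5% was chosen after the data were seen. Symbols were matched in the promoter table of RefSeq. Python 3.11.15, NumPy 2.4.6, SciPy 1.17.1, pandas 2.3.3 and matplotlib 3.10.9 were used. Alternatives changed the CXCL10 threshold, mitochondrial limit, hashtag rule, depth, strata, denominator, call rule and ranges, and left out each pair. A gene of the lists is not reported here by name.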

Additional observations from a re-analysis of the deposited data

Results flagged for a closer look

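Kept cells whose top pair was one of the 10 but whose second hashtag was not clear of the third were outside the comparison. Of these 257 cells 101 held at least 2 CXCL10 UMIs (39.3%, 33.3% to 45.6%), beside 4.13% of cells with a clear pair, and 42 of them held 39 or more. Those 101 had a median extra hashtag share of 18.2%, an IFN-gamma list of 76.9 and a type I list of 68.4 counts per 10000 UMIs. In 50 of the 101 the third hashtag formed, with a hashtag of the pair, one of the 5 pairs of strong CXCL10.

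Barcodes of the 10 pairs that the gene or mitochondrial limit removed held at least 2 CXCL10 UMIs in 22 of 1089 (2.02%, 1.27% to 3.04%). These 22 had at most 15 CXCL10 UMIs, a median extra hashtag share of 0.809%, and 14.1 counts per 10000 UMIs for the IFN-gamma list.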

How the results depend on the processing

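List ratios are given in the order IFN-gamma, shared, type I and TNF and NF-kB for all members, then IFN-gamma and type I for members with an extra hashtag under 5%; with no alternative they were 2.33, 1.29, 1.52, 1.12, 1.47 and 1.52. No list ratio crossed 1 under the alternatives run, but the NF-kB interval with at most 3 counts of the third hashtag, 0.928 to 1.14, held 1. At 3 or more CXCL10 UMIs they were 3.47, 1.52, 1.97, 1.18, 1.83 and 2.17, with 21.4% of members in the IFN-gamma range in place of 10.0%. At 1 or more they were 1.39, 1.11, 1.24, 1.06, 1.15 and 1.23, with 67 genes called higher, 40 lower and 2.70% in the range. At most 10% mitochondrial UMIs gave shared 1.34, type I 1.41, NF-kB 1.06 and, under 5%, 1.28 and 1.45. A second hashtag at least 10 times the third gave IFN-gamma 1.48, shared 1.21 and 2.63% in the range. Depth terciles gave type I 1.57 in both classes. Without strata the 6 ratios were 2.56, 1.35, 1.57, 1.32, 1.62 and 1.61. Without mitochondrial and ribosomal protein UMIs, shared was 1.26, type I 1.48 in both classes and NF-kB 1.09. With at most 3 counts of the third hashtag, which left 5 members, they were 2.60, 1.36, 2.05, 1.03, 2.60 and 2.05, with 65 genes lower and 25.0% in the range. Thinned before CXCL10 was read, with 36 members, they were 3.46, 1.49, 1.95, 1.12, 2.14 and 2.19, with 25.0% in the range. A 2-fold rule called 147 genes higher and 51 lower, and no filter called 995 higher. The 1st percentile as limit put 46.7% in the IFN-gamma range and the 25th 1.11%; the 99th percentile put 7.89% of the members under 5% in the top type I range in place of 21.1%. Chosen after the data were seen were the third hashtag under 5% (IFN-gamma 1.48, shared 1.22, 2.63% in the range), leaving out members with 20 or more CXCL10 UMIs (1.51, 1.23 and, in both classes, type I 1.42; 3.75% in the range) and with 5 or more (IFN-gamma 1.31, shared 1.16, type I 1.29, under 5% 1.31 and 1.28; 1.45% in the range). Leaving out each pair gave ranges of 2.15 to 2.68, 1.24 to 1.33, 1.21 to 1.58 and 1.11 to 1.14 for all members and 1.29 to 1.52 and 1.14 to 1.60 under 5%, with 408 to 612 genes higher, 83 to 132 lower and 8.64% to 11.5% in the range; the lowest type I values came without HTO3+HTO8. Without the member with most G2/M counts that list had 1.34 in place of 2.28; HMMR, CIT, IFIT2 and RSAD2 without 1 cell are given above. The causes of these shifts were not tested. Few members, 2 CXCL10 UMIs in 50 of them, and the unmapped hashtags limit every value. All ratios but the one without strata already compare cells within a hashtag pair.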
